A study of Mus musculus with 3 samples.

Results

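The genes described here are 7 markers of the embryonic endoderm, Sox17, Hhex, Nkx2-1, Pyy, Afp, Ttr and Cer1, measured in mouse otic placodal ectoderm that lacked Fgf3 and Fgf10 or carried 1 working copy of each. They were chosen by name, as the genes of a list of foregut and visceral endoderm markers, and are 7 of 27670 gene names on the array, read by 12 of its 41174 non-control probes. Names in the files found 6 of the 7 genes, and Nkx2-1 was found through its RefSeq accession, since the array lists it under the older name Titf1. The mutant embryos were Fgf3-/-;Fgf10-/- (double null) and the controls were Fgf3+/-;Fgf10+/- (double heterozygote), so that the controls also carried a null allele of each gene, and no wild type was measured. Placodes were microdissected at 4 to 8 somites from untreated pregnancies, and each genotype gave 3 pools of 10 placodes. Each of 3 arrays compared 1 double null pool, labelled with Cy5, with 1 double heterozygote pool, labelled with Cy3. Because the dyes were never exchanged, a dye effect on a probe cannot be told apart from the genotype. The labels call the pools biological replicas, without the number of embryos behind each.

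The endoderm forms the lining of the gut and its derivatives, and in the early embryo it arises as visceral endoderm and as definitive endoderm. The foregut part, the pharyngeal endoderm, lies close beneath the head ectoderm from which the otic placode thickens. Sox17 encodes an HMG-box transcription factor required for definitive endoderm and also active in endothelium, and Hhex encodes a homeodomain factor of the anterior and foregut endoderm that is also found in early endothelium and blood progenitors. Afp and Ttr encode secreted carrier proteins made by the visceral endoderm and later by the liver. Cer1 encodes a secreted antagonist of Nodal and BMP proteins, Pyy a gut peptide hormone, and Nkx2-1 a homeodomain factor of the thyroid, lung and ventral forebrain.

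Probes of 60 bases with an open reading frame are shown for 3 of these genes. The Sox17 probe is a separate readout of the gene whose difference passed the test, and the Hhex and Pyy probes are the second readouts of the other genes that have more than 1 probe. All letters are lower case, since no stretch within a probe was singled out, and positions are those of the files on build mm7. The sequences are those of the array files, 5′ to 3′.
Sox17, chr1:4487401-4487460, minus strand: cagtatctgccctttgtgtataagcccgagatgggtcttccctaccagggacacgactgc
Hhex, chr19:37137914-37137973, plus strand: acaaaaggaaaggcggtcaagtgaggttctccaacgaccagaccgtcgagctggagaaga
Pyy, chr11:102216036-102216095, minus strand: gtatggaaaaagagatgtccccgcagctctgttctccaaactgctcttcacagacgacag
As printed, 2 reading frames are free of stop codons in the Sox17 and in the Hhex probe, and all 3 are in the Pyy probe. The brightest Sox17 probe, at chr1:4487014-4487073 on the minus strand, has a stop codon in all 3 frames. It lies 387 bases further along the gene than the Sox17 probe shown.

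Of the 12 probes, 7 were well above background in a channel on all 3 arrays and entered the test, and they covered 5 genes. These were 2 probes of Sox17, 2 of Pyy and 1 each of Hhex, Afp and Cer1. The markers of the labelled tissue were checked beside them. Of 17 otic and surface ectoderm markers on the array 16 were tested, and Pax2, a defining otic marker, was not well above background in either channel on any array.

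Sox17 was lower in the double null pools with both of its measured probes. The brightest probe had scanner-processed intensities (background-subtracted and dye-normalized, in arbitrary units) of 315, 236 and 308 in the double null pools of arrays 1, 2 and 3, against 424, 395 and 507 in the double heterozygote pools. Every double null pool was below every double heterozygote pool, so the groups did not overlap. Its log2 ratios of double null over double heterozygote, after normexp background correction and loess normalization, were -0.38, -0.61 and -0.62. Their mean of -0.54 ± 0.07 (SE, n = 3) is 0.690 of the double heterozygote level, with limma adjusted p = 0.0155 over all 25504 probes tested. Here and below, SE is limma's moderated SE, in which the variance of each probe is drawn towards that of all probes. Where a probe varies much between arrays, it is smaller than the SE of the 3 ratios alone. In a bulk pool, fewer cells that express a gene and less RNA per cell cannot be told apart.

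The second Sox17 probe, whose sequence is shown above, gave a smaller difference in the same direction. Its processed intensities were 165, 135 and 160 in the double null pools, against 223, 176 and 258 in the double heterozygote pools, again without overlap. The log2 ratios were -0.30, -0.27 and -0.52, with a mean of -0.36 ± 0.06 (SE, n = 3). This probe missed the threshold of 0.05 with limma adjusted p = 0.0555 (unadjusted p = 0.000988).

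The other 2 probes named Sox17 were not well above background on any array. One, at chr1:4490742-4490801, lies 3728 bases from the brightest probe on the same strand and read 4.33, 3.44 and 3.18 in the double null pools and 4.96, 4.16 and 3.64 in the double heterozygote pools. The other, at chr1:4494263-4494322, was designed from a clone sequence, and its coordinates run in the opposite direction to those of the other Sox17 probes. It read 3.97, 2.96 and 5.06 in the double null pools and 7.85, 3.70 and 5.83 in the double heterozygote pools. Both therefore give only a bound, and no fold was taken from them.

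Among the 7 tested probes, 1 was called lower and 0 higher at adjusted p under 0.05, where the background over all tested probes was 1.51% in either direction, 0.29% lower and 1.22% higher. The processed intensities did not overlap between the genotypes for 2 of the 7, both of Sox17, against 14.7% of all tested probes (7.49% with the double null lower). The log2 ratio had one sign on all 3 arrays for 3 of the 7, the 2 Sox17 probes and Afp, against 43.8% of all tested probes (19.2% with the double null lower), a share close to that of these genes. The median log2 ratio of the 5 tested genes, taking the brightest probe of each, was 0.14, and that of all 16840 tested genes was 0.0063. Sox17 was thus the only one of the 5 genes with a negative mean ratio under these settings.

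**Figure D1:**
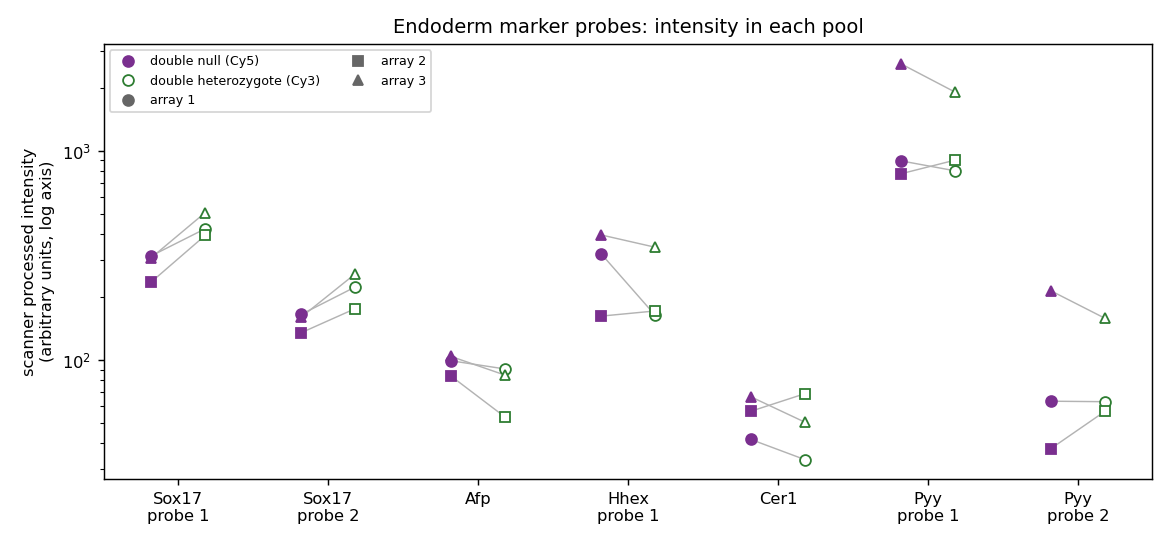
Scanner-processed intensity (arbitrary units, log axis) of the 7 tested endoderm marker probes, with filled points for the double null pools, open points for the double heterozygote pools, a symbol for each array and grey lines joining the pools of an array. Probe 1 is the brightest of its gene. All 3 double null points lie below all 3 double heterozygote points for both Sox17 probes, and the groups overlap for the other 5 probes.

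Hhex, the other transcription factor above background, had log2 ratios that varied between arrays more than those of any other tested member. Its brightest probe, at chr19:37141162-37141221, had processed intensities of 323, 162 and 396 in the double null pools and 164, 172 and 346 in the double heterozygote pools. The groups overlapped, and the double null pool was clearly brighter on array 1 alone. The log2 ratios were 0.86, -0.06 and 0.21, with an SD of 0.47 between arrays. Their mean was 0.34 ± 0.16 (SE, n = 3) with limma adjusted p = 0.287. Without array 1 the mean was 0.08. The Hhex probe whose sequence is shown above was dim, at 24.5, 3.39 and 10.8 in the double null pools and 11.1, 4.16 and 6.18 in the double heterozygote pools. It was well above background in the double null pool of array 1 only and was not tested. Its highest value was in the same pool as the largest Hhex ratio of the brighter probe.

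Nkx2-1 was not well above background in any pool. Its probe, at chr12:54462492-54462551, is printed at 10 places on each array, and none of those spots was well above background in either channel. The means over spots were 3.66, 2.73 and 4.04 in the double null pools and 4.79, 3.33 and 3.12 in the double heterozygote pools.

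Pyy, a marker of the early foregut, was measured by both of its probes and did not pass with either. Its brightest probe, at chr11:102215715-102215774, had processed intensities of 896, 777 and 2607 in the double null pools and 803, 902 and 1911 in the double heterozygote pools. Both pools of array 3 were brighter than the pools of the other arrays, and the spread between arrays exceeded the difference between genotypes. The log2 ratios were 0.18, -0.18 and 0.42, with a mean of 0.14 ± 0.11 (SE, n = 3) and limma adjusted p = 0.513. The probe printed above gave 63.6, 37.7 and 214 in the double null pools and 63.2, 56.8 and 158 in the double heterozygote pools. Its log2 ratios of 0.07, -0.18 and 0.40 had the same signs as those of the first probe, with a mean of 0.09 ± 0.11 (SE, n = 3) and adjusted p = 0.647. The sign of both Pyy means rested on array 3, without which they were -0.0036 and -0.06.

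**Figure D2:**
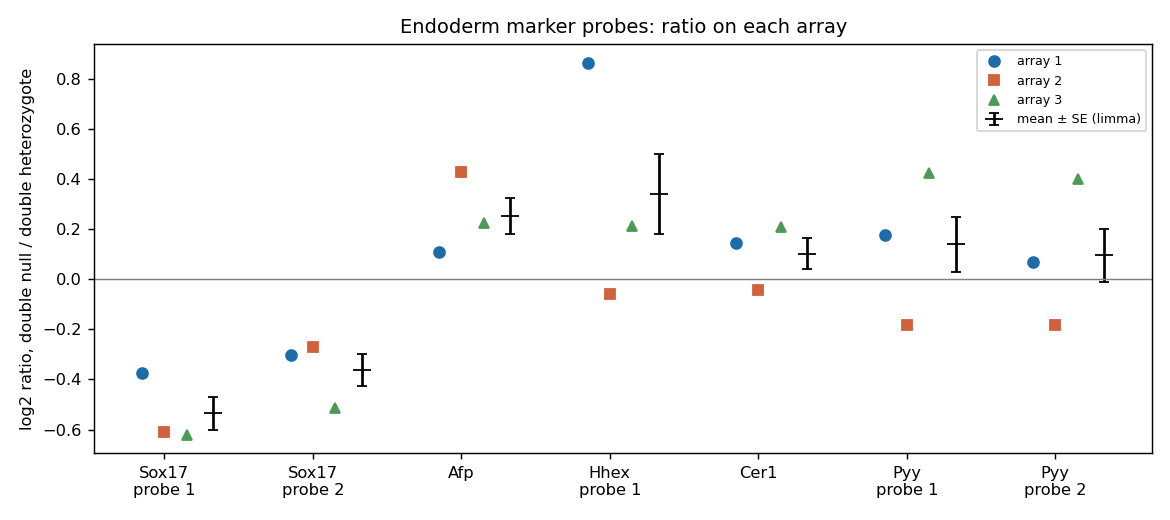
Log2 ratio of double null over double heterozygote on each of the 3 arrays (coloured symbols) for the 7 tested endoderm marker probes, with the mean and limma standard error in black. The Sox17 points lie between -0.62 and -0.27, Afp lies above 0 on all arrays, and Hhex, Cer1 and Pyy lie below 0 on array 2 only.

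The visceral endoderm products gave 1 measured gene. Afp, printed at 10 places on each array, had mean processed intensities of 99.2, 83.8 and 104 in the double null pools and 90.7, 53.4 and 84.7 in the double heterozygote pools. The double null pool was brighter on each array, although the groups overlapped. The log2 ratios were 0.11, 0.43 and 0.22, with a mean of 0.25 ± 0.07 (SE, n = 3) and limma adjusted p = 0.134. Within an array the log2 ratios of the Afp spots had an SD of 0.09, 0.07 and 0.07 (10, 10 and 9 spots used), against an SD of 0.16 between arrays. The spots of an array share the same RNA, so they measure printing and reading error only. Ttr, whose probe lies on chromosome 18, was not well above background in any pool, with 4.36, 5.24 and 4.04 in the double null pools and 4.93, 8.88 and 3.50 in the double heterozygote pools.

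Cer1, the secreted antagonist, was dim but well above background in all 6 channels. Its probe, at chr4:82285553-82285612, had processed intensities of 41.7, 56.9 and 66.7 in the double null pools and 33.4, 69.1 and 50.5 in the double heterozygote pools, and the groups overlapped. The log2 ratios were 0.14, -0.04 and 0.21, with a mean of 0.10 ± 0.06 (SE, n = 3) and limma adjusted p = 0.409.

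Sox17 was next set beside the other SoxF genes and the endothelium, where it is also active. Sox7 and Sox18, the other members of this group of transcription factor genes, had log2 ratios of 0.74, 0.25 and -0.01 and of 0.89, 0.19 and 0.18. Their means were 0.33 ± 0.13 (SE, n = 3, limma adjusted p = 0.232) and 0.42 ± 0.14 (adjusted p = 0.179), and the second Sox7 probe gave 0.03. On array 1 Sox7 and Sox18 were thus above 0 where Sox17 was below it, and the difference between these genes was not tested. Of 20 endothelial markers 18 were tested, and limma called 0 higher and 0 lower, with 7 higher and 1 lower at an unadjusted p under 0.05. Sox7 and Sox18 are on this list and among the 7 higher. Over all genes tested, taking the brightest probe of each, 21.9% were under that unadjusted p, 12.4% higher and 9.48% lower. The brightest endothelial markers were Egfl7, a secreted protein gene, at 0.16 ± 0.06 (SE, n = 3, limma adjusted p = 0.187), and the receptor partner gene Ramp2 at 0.13 ± 0.10 (adjusted p = 0.486). The list's median log2 ratio was 0.34, and by array it was 0.83, 0.09 and 0.11. The summed processed intensity of the list was 10440, 8347 and 8869 in the double null pools and 6789, 8273 and 8507 in the double heterozygote pools. Pecam1, a defining endothelial marker, was not well above background in any pool. The part of endothelial cells in the Sox17 ratio was not tested.

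Hhex, Cer1 and Pyy, which were below 0 on array 2 only, were set beside the red cell markers. The embryonic globin gene Hbb-bh1 had processed intensities of 1358, 149 and 3496 in the double null pools and 475, 235 and 500.2 in the double heterozygote pools, with log2 ratios of 1.43, -0.51 and 2.69 (mean 1.20 ± 0.52, SE, n = 3, limma adjusted p = 0.257). The carbonic anhydrase gene Car2, the brightest of the list, went the other way on each array, at -0.29, 0.15 and -0.25. Of the 12 red cell markers on the array 7 were tested and limma called 0. At an unadjusted p under 0.05, 3 were higher and 0 lower, where 12.4% of all genes tested were higher and 9.48% lower. The array medians of the list were 0.36, -0.02 and 0.34. Its summed processed intensities were 7956, 8267 and 11808 in the double null pools and 7738, 7478 and 9022 in the double heterozygote pools. Car2 alone made up 5670, 7664 and 6743 of those sums in the double null pools and 6789, 6762 and 7903 in the double heterozygote pools. Of the 7 tested red cell markers 4 were below 0 on array 2 and above 0 on arrays 1 and 3, and 2 were above 0 on all 3 arrays. Of the 18 tested endothelial markers 4 had the signs of Hhex, as 9.04% of all genes tested had, and 10 were above 0 on array 2. Tal1 is on both lists and was counted with these signs in both. Alas2 and Gata1 were among the red cell markers not tested for low signal. Hbb-y was well above background on only 2 arrays in each channel and was not tested, with log2 ratios of 0.52, -0.03 and 1.60. The part of red cells in the Hhex, Cer1 and Pyy ratios was not tested.

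**Figure D3:**
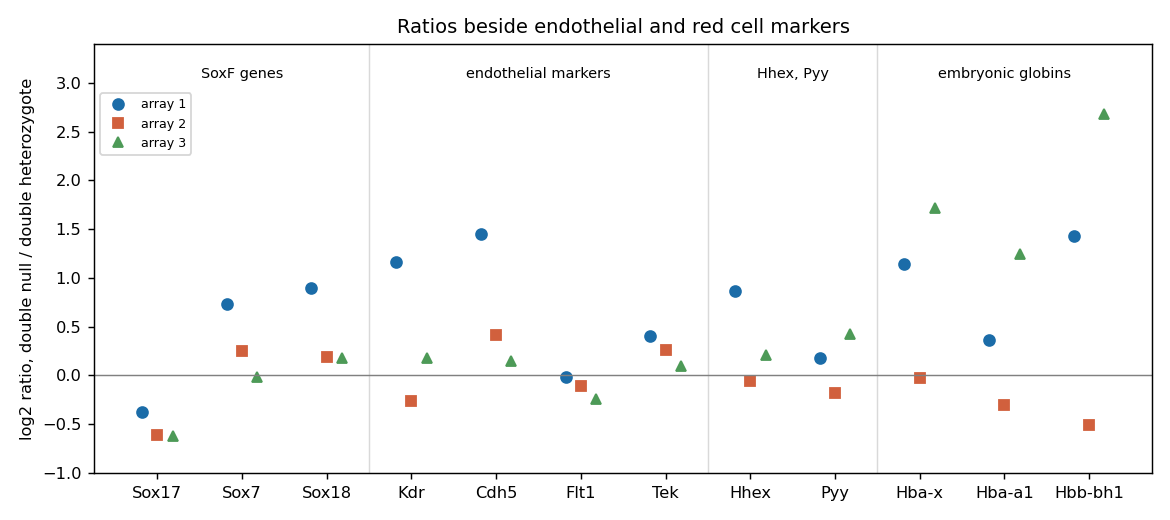
Log2 ratio of double null over double heterozygote on each array (symbols) for Sox17, Hhex and Pyy beside other SoxF genes, endothelial markers and embryonic globins, each by its brightest probe. Sox17 lies below 0 on all 3 arrays, Sox18 above 0 on all 3, and Hhex, Pyy, Kdr and the globins lie below 0 on array 2 only. Of the other endothelial markers drawn, Cdh5 and Tek lie above 0 and Flt1 below 0 on all 3 arrays. Dimmer tested Flt1 probes, not drawn, had means above 0, at 0.10 and 0.17.

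Other endoderm genes were counted from lists that share some genes with one another and with the ectoderm. Of 22 secreted and absorptive visceral endoderm genes on the array 12 were tested and limma called 0 (1 higher at an unadjusted p under 0.05), with a median log2 ratio of 0.04. The endocytic receptor gene Lrp2 (-0.02) and its adaptor gene Dab2 (-0.09) were the brightest of them, while the lipoprotein genes Apoa1, Apoa4, Apob and Apoc2 were not tested for low signal. Of 20 endoderm transcription factor genes 14 were tested and limma called 0, with a median of 0.08. At an unadjusted p under 0.05, 5 were higher and 1 lower, where 21.9% of all genes tested were under it. The forkhead gene Foxa2, a regulator of endoderm, notochord and floor plate, had processed intensities of 2120, 2311 and 2248 in the double null pools and 1873, 2753 and 2580 in the double heterozygote pools, and a mean log2 ratio of -0.09 ± 0.09 (SE, n = 3). The Wnt pathway factor gene Tcf7l2 was at -0.04. Gata6, an endoderm and heart factor gene named here after its values were seen, had log2 ratios of 0.91, 0.32 and 0.99 and a mean of 0.74 ± 0.13 with limma adjusted p = 0.0519. Its processed intensities were 427, 216 and 502 in the double null pools and 208, 170.0 and 226 in the double heterozygote pools.

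Of 21 foregut and pharyngeal endoderm genes 18 were tested and limma called 0 by their brightest probes. At an unadjusted p under 0.05, 3 were higher and 5 lower, where 12.4% of all genes tested were higher and 9.48% lower. The list's median log2 ratio was -0.12. By array that median was -0.06, -0.14 and -0.0027, and it was -0.03 without replicate 2 and -0.06 without replicate 3. The 2 brightest were Tbx1, a T-box gene of pharyngeal tissues and otic epithelium, at -0.18 ± 0.05 (SE, n = 3, limma adjusted p = 0.135), and the claudin gene Cldn7 of epithelial junctions, at -0.38 ± 0.08 (adjusted p = 0.0928). Anterior visceral endoderm and mesendoderm signals had a median of 0.07. Of these 18 genes 16 were tested, and limma called 0 by their brightest probes (4 higher and 1 lower at an unadjusted p under 0.05). Their brightest members were the Wnt antagonist genes Sfrp1 (0.15) and Frzb (-0.15). A dimmer Sfrp1 probe went the other way, at -0.35, and was called lower (limma adjusted p = 0.0268). A dimmer Wnt3 probe was called higher, at 0.31 (adjusted p = 0.0482), where the brightest Wnt3 probe was at -0.01. Over all genes tested, taking the brightest probe of each, 1.91% were called, 0.344% lower and 1.57% higher. Among the ectoderm markers, 2 of 16 otic and surface ectoderm markers were lower at adjusted p under 0.05 by their brightest probes, Hmx2 (-0.59) and Sox9 (-0.69). Dimmer tested Sox9 probes, at -0.40 and -0.0040, did not pass (limma adjusted p = 0.105 and 0.978). At an unadjusted p under 0.05, 9 of the 16 markers were lower and 0 higher. That list had a median of -0.16 and 14 of 16 members below 0. limma called 0 of its genes without replicate 3, with normexp offset 16, with span 0.1, with processed signals and with the deposited series table. The count was 1 with span 0.3 on spots above background. It rose to 3 with no probe filter, 3 without replicate 2, 4 with an intensity trend and 13 with median centring. The foregut count rose to 1 with no probe filter, 2 without replicate 1, 3 with an intensity trend and 8 with median centring. The transcription factor count rose to 1 with no probe filter, 1 without replicate 2, 2 with an intensity trend and 8 with median centring. With median centring the anterior signal, visceral endoderm, endothelial and red cell counts were 7, 10, 13 and 4. The anterior signal count was 1 with an intensity trend, and the red cell count 2 without replicate 2. With median centring, which moved the median of all tested probes to 0.33, the medians of the foregut and the ectoderm lists became 0.19 and 0.27. The medians of the visceral endoderm, transcription factor and anterior signal lists became 0.20, 0.21 and 0.23, below that of all probes, whereas all 3 were above it as reported.

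The genes whose 3 array ratios lay nearest to those of the brightest Sox17 probe, by Euclidean distance over 20606 probes with gene names that were above background in both channels, were Dusp6, Lum and Tatdn2. Dusp6, an ERK phosphatase gene, had log2 ratios of -0.39, -0.47 and -0.64, at a distance of 0.137. Lum, a proteoglycan gene, had -0.29, -0.68 and -0.52, at a distance of 0.144, and Tatdn2 had -0.30, -0.50 and -0.56, at a distance of 0.146. With 3 arrays that all genes share, this is a description of likeness only.

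The log2 ratio of the brightest Sox17 probe was below 0 in all 15 alternative settings, between -0.63 and -0.25, and past the threshold in 9 of them. It did not pass with the scanner's processed signals (limma adjusted p = 0.207), the authors' deposited series table (adjusted p = 0.200), loess of span 0.1 on spots above background (adjusted p = 0.0593), separate channels (adjusted p = 0.137), without replicate 2 (adjusted p = 0.0675) or without replicate 3 (adjusted p = 0.117). With median centring, which moved the median log2 ratio of all tested probes to 0.33, it was at -0.25 (adjusted p = 0.0201), or -0.58 relative to that median, against -0.55 relative to the median as reported. Median centring also put Afp, Hhex and the brighter Pyy probe past the threshold, at 0.30, 0.58 and 0.57, which is -0.02, 0.25 and 0.24 relative to the median of all probes. Cer1 and the dimmer Pyy probe were then at -0.31 and -0.24 relative to it, against 0.09 and 0.08 as reported, so that direction relative to all probes held for Sox17, Hhex and the brighter Pyy probe and turned for Afp, Cer1 and the dimmer Pyy probe.

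**Figure D4:**
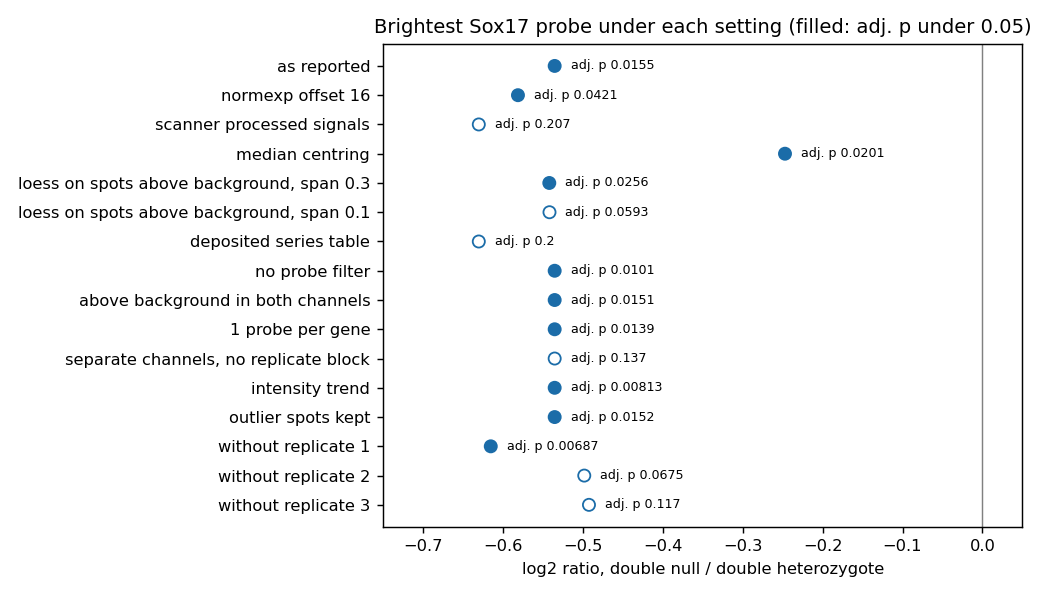
Log2 ratio of double null over double heterozygote of the brightest Sox17 probe under the setting reported (top) and 15 alternatives, filled where the limma adjusted p is under 0.05. All points lie below 0, 10 of the 16 are filled, and median centring stands apart at -0.25.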

How the data were processed

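Total RNA of pooled mouse otic placodal ectoderm was measured on 3 Agilent 2-colour arrays. Spots were read with Agilent Feature Extraction 9.5.1.1, per the submitters' processing notes. Per the file headers, each deposited scanner file gives mean, background and processed intensity for both dyes and the log10 ratio, red over green. In the table deposited for the whole series, the log2 values equalled these ratios within 2.01e-06 once converted.

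Intensities were corrected by normexp (offset 50) and ratios normalized by loess (span 0.3, controls at weight 0). Spots with an outlier mark were left out and spots of a probe averaged. Probes well above background in Cy3 or in Cy5 on all 3 arrays, 25504 in all, entered an intercept model in limma (version 3.58.1, on R version 4.3.3, with lmFit and eBayes), adjusted by Benjamini-Hochberg with a threshold of 0.05. Lists used the brightest tested probe per gene and no set test. Names came from RefSeq records of GRCm38.p6, by accession for 22951 probes. Intensities printed are means of the scanner's processed signal over a probe's spots. Double null and double heterozygote pools are paired by the array they share. Precision is limited by having 3 arrays. The model was checked on simulated data.

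The members, lists and the rule for named genes were chosen with earlier results of these data known. The rule took all member probes, from each list up to 4 called genes or else its 2 brightest, and the 3 genes nearest to Sox17, and it let SoxF, endothelial and red cell genes be named beside Sox17. Gata6, and Kdr and the globins where set beside Hhex and Pyy, fall outside it and were chosen after their values were seen. Alternatives were other background, normalization, filter, probe, model and array choices.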

Additional observations from a re-analysis of the deposited data

How the results depend on the processing

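All alternatives were planned. The 384 probes called (74 lower and 310 higher, 80.7% higher; 5162 at unadjusted p under 0.05) became 199 with normexp offset 16, 233 with loess of span 0.3 on spots above background, 11 with span 0.1 (0 lower and 11 higher), 19474 with median centring, 185 with separate channels and no replicate block (12 lower and 173 higher, 93.5% higher), and 993 with an intensity trend (64.0% higher). limma called 0 with the scanner's processed signals (4418 at unadjusted p under 0.05) and 0 with the deposited series table (4469). Leaving out 1 array gave 87 to 305, with 230 without replicate 2 and 87 without replicate 3 (94.3% higher). The member probes called, 1, became 0 with processed signals, the series table, span 0.1 and separate channels, 2 with an intensity trend and 5 with median centring, and 0 to 1 with 1 array left out.

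The log2 ratio of the brightest Sox17 probe was -0.63 with processed signals and with the series table, -0.54 with span 0.1 and with separate channels without the replicate block, and between -0.61 and -0.49 with 1 array left out. The second Sox17 probe passed with median centring (-0.18, adjusted p = 0.0433) and with an intensity trend (-0.36, adjusted p = 0.0395). The dimmer Pyy probe changed sign with processed signals and the series table (-0.049). With 1 array left out, the brighter Pyy probe ranged from -0.0036 (without replicate 3) to 0.301 and the dimmer one from -0.0576 (without replicate 3) to 0.234. Sox17, Afp, Hhex and Cer1 kept their sign in every alternative run, but relative to the median of all probes Afp (-0.02) and Cer1 (-0.31) turned with median centring. The causes were not tested. Signal near background limited Ttr, Nkx2-1, the second Hhex probe and 2 of 4 Sox17 probes.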
